A study of Mus musculus with 4 samples.

Results

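The 10 genes described here encode the Notch receptors Notch1, Notch2, Notch3 and Notch4, the ligands Jag1 and Jag2, the nuclear proteins Rbpj and Maml1, and the targets Hes1 and Hey1. They were chosen by name and not by a rule on their values, but earlier results of these data were known at that time. Every probe that was not a control and whose accession maps to a member symbol in the mouse RefSeq gene table was used. This gave 13 probes, with 2 each for 3 genes (Notch1, Notch2 and Rbpj) and 1 each for the other 7 genes, out of 39429 probes on the array. Of all probes, 27421 carried a gene symbol, for 20828 genes.

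The measurements compared Met-low and Met-high cells, the populations with little and much surface Met, sorted by flow cytometry from B16-F10. B16-F10 is a mouse melanoma line that forms lung colonies after injection into mice, and Met is the receptor for hepatocyte growth factor. Each sorted population was kept in culture for 3 days before total RNA was taken, and the labels name no other treatment and no altered gene in either population. RNA was labelled with Cy3 and hybridised to 4 Agilent mouse arrays of 1 colour, so that each population had 2 arrays. Both populations come from 1 cell line, and the study describes the 2 RNA samples of each population as prepared independently. The p-values measure the spread between these samples. All 4 arrays lay on 1 slide read in 1 scan, with Met-low at positions 1 and 2 and Met-high at positions 3 and 4, so that position and population cannot be told apart.

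Signals are given on the log2 scale with the 75th percentile of each array at 0. That percentile was an intensity of 942.1 and 1331 for Met-low and of 858.4 and 1111 for Met-high. Between 50.01% and 53.63% of the 43020 spots on an array were well above background in the scanner's own test, and 0 were saturated. All 8 melanocyte lineage markers, among them Mitf, Sox10 and Tyr, were well above background on the 4 arrays. So were 1 of 5 endothelial markers (Kdr) and 2 of 4 leukocyte markers (Csf1r and Cd3e), on at least 1 probe. Of 4 keratinocyte and 4 fibroblast markers, 0 were. Met itself was at -0.26 and -0.89 in Met-low and at 1.03 and -0.43 in Met-high (difference 0.87, SE 0.54, limma adjusted p = 0.403). The array labelled Met-high replicate 2 thus lay between the Met-low arrays for Met, and the values of the tested Notch probes are given below with and without it. On cultured cells sorted in bulk, fewer cells with a transcript and less transcript per cell cannot be told apart.

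Notch receptors are membrane proteins that are cut when a ligand on a neighbouring cell pulls on them, first by ADAM proteases and then by gamma-secretase. The freed intracellular domain enters the nucleus and joins the DNA-binding protein Rbpj and a Mastermind protein such as Maml1, and this complex switches on genes such as Hes1 and Hey1, which encode transcriptional repressors. In the melanocyte lineage, Notch signalling through Rbpj and Hes1 is known for maintaining melanoblasts and melanocyte stem cells.

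Among the 10 genes, transcripts of Notch2, Jag1, Rbpj, Maml1 and Hes1 were measured above background in both populations, whereas Notch3 was above background in Met-low alone. Notch1, Notch4, Jag2 and Hey1 were at or near background on most arrays. Notch3 had the widest difference, lower in Met-high cells, but no probe of the 10 genes passed the test after correction for multiple testing. A probe was tested where both arrays of Met-low, both of Met-high, or all 4 were well above background, as 7 of the 13 probes were, covering 6 of the 10 genes. The 6 probes that were not tested were both probes of Notch1, the dimmer probe of Notch2, and the probes of Notch4, Jag2 and Hey1.

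**Figure D1:**
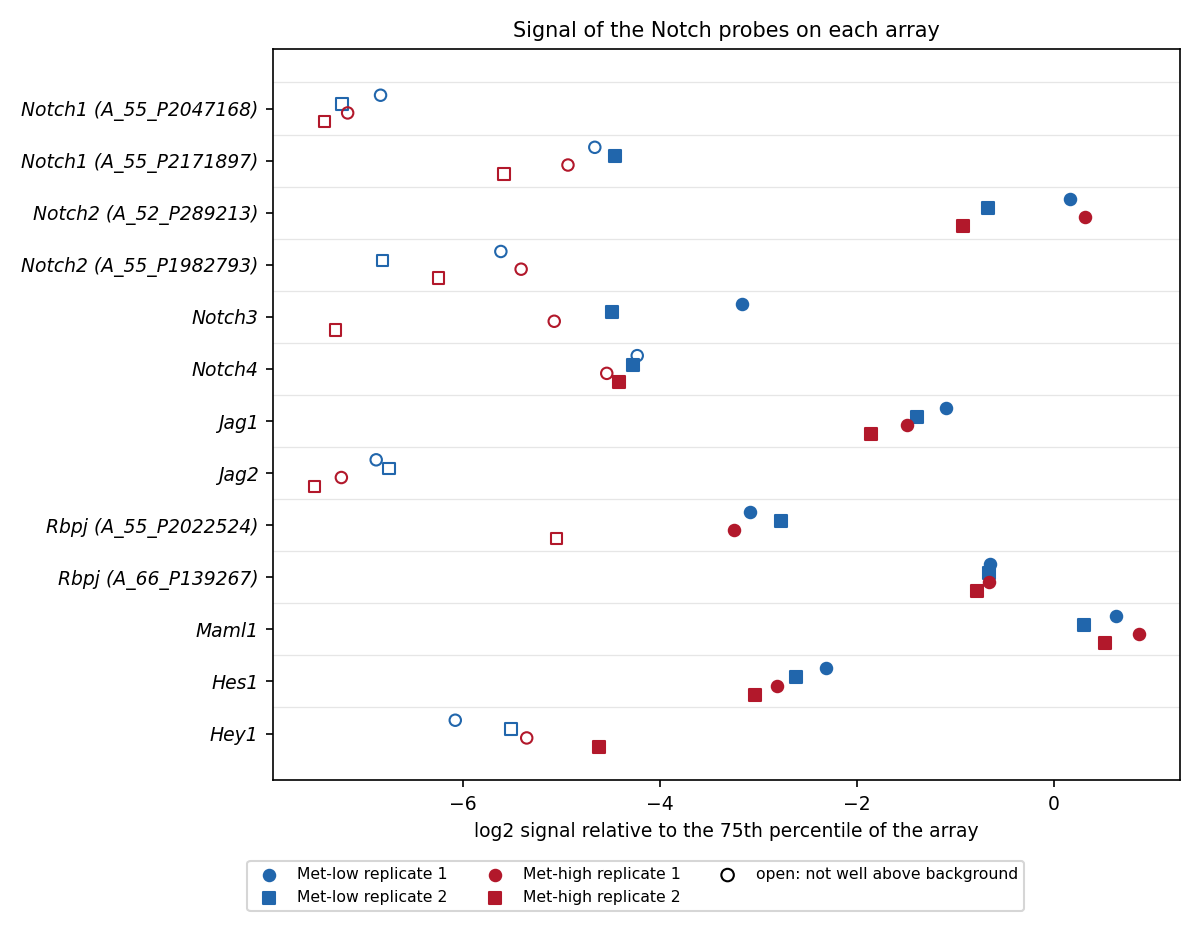
Signal of the 13 probes of the 10 Notch genes on each of the 4 arrays, on the x axis in log2 units above or below the array's 75th percentile, with blue for Met-low, red for Met-high, circles for replicate 1 and squares for replicate 2. Filled marks are well above background and open marks are not. Both Notch3 marks of Met-high are open and lie below both of Met-low, and the marks of the 2 Rbpj probes are arranged differently.

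Notch2, a receptor that melanocyte precursors carry together with Notch1, was measured by probe A_52_P289213 at 0.16 and -0.67 in Met-low and at 0.31 and -0.92 in Met-high. Each population had 1 high and 1 low array, and the populations overlapped. The difference between Met-high and Met-low was -0.05 on the log2 scale (SE 0.51, 95% interval -1.38 to 1.28, limma adjusted p = 0.965), and 0.57 without Met-high replicate 2. The interval is wide enough to hold changes of 2-fold in either direction, so that equal levels were not shown. The other Notch2 probe, A_55_P1982793, was at -5.62, -6.82, -5.41 and -6.25 in the order Met-low replicates 1 and 2 and Met-high replicates 1 and 2. It was not well above background on any array.

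Notch3, the receptor best known from vascular smooth muscle and pericytes, was at -3.17 and -4.48 in Met-low and at -5.08 and -7.30 in Met-high, from intensities of 104.5, 59.48, 25.46 and 7.068. The populations did not overlap, and Met-low was the higher. The signal was well above background on both Met-low arrays and on neither Met-high array, so the Met-high value is only an upper limit. With each Met-high signal raised to the dimmest signal called well above background, the Notch3 mean in Met-low was 2.42-fold higher. This fold comes from group means without an interval, and so is no minimum. The measured difference was -2.36 (SE 0.86, 95% interval -4.60 to -0.11). Its unadjusted p was 0.043 and its limma adjusted p was 0.209, above the threshold of 0.05. Because Notch3 entered the test through its Met-low arrays alone, a difference in that direction was built into its selection. On the log2 scale the 2 Met-low arrays were 1.31 apart and the 2 Met-high arrays 2.22 apart. The Notch3 difference was -1.25 when Met-high replicate 2 was left out (adjusted p = 0.438) and -3.47 when Met-high replicate 1 was (adjusted p = 0.0866).

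Markers of the other cells known for Notch3 were looked at on the same arrays. Of 5 pericyte and smooth muscle markers, Cspg4 was well above background on all 4 arrays, Acta2 on 1 array of each population, and Rgs5, Pdgfrb and Myh11 on none. The summed intensity of the 5, not scaled by array, was 309.3 and 312 in Met-low and 201.8 and 199.3 in Met-high. Most of it was Cspg4, at 251.8 and 223.4 in Met-low and at 121.9 and 129.7 in Met-high. Pdgfrb went the other way at background, at 10.65 and 8.99 in Met-low and at 27.95 and 18.34 in Met-high. Cspg4, which melanoma cells express too, was at -1.90 and -2.58 in Met-low and at -2.82 and -3.10 in Met-high (difference -0.72, adjusted p = 0.23). Whether these markers have a part in the Notch3 values was not tested.

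Notch1, whose product is the receptor first found in T cell leukaemia, gave little signal. Probe A_55_P2171897 was at -4.66 and -4.46 in Met-low and at -4.94 and -5.59 in Met-high, and was well above background on 1 Met-low array. Met-low was above Met-high, by 0.70 on the log2 scale, without a test. Probe A_55_P2047168 was at -6.84, -7.23, -7.17 and -7.41 on the arrays in the same order, with no array above background.

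Notch4, a receptor known chiefly from endothelium, was at -4.23 and -4.27 in Met-low and at -4.54 and -4.42 in Met-high, above background on 1 array of each population. Met-low was above Met-high on all arrays, by 0.23. All these values lay near the lowest signal that the scanner called well above background, which was -4.59 and -5.01 for Met-low and -4.96 and -5.25 for Met-high. No statement on a change in Notch1 or Notch4 can be drawn from signals this dim.

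Of the ligands, Jag1 was measured on every array, at -1.10 and -1.39 in Met-low and at -1.50 and -1.86 in Met-high. The Met-low arrays were both above the Met-high arrays, with 0.10 between the nearest arrays of the populations. The difference was -0.43 (SE 0.21, 95% interval -0.995 to 0.128, adjusted p = 0.311), and -0.25 without Met-high replicate 2. Jag2 was at -6.88 and -6.75 in Met-low and at -7.24 and -7.51 in Met-high, and was not well above background on any array. The small gap between the Jag2 values is a gap between background signals.

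Rbpj, the DNA-binding protein on which canonical Notch signals converge, had 2 probes above background, and they gave different ratios. The brighter probe, A_66_P139267, was at -0.65 and -0.66 in Met-low and at -0.66 and -0.78 in Met-high, with 0.005 between the nearest arrays. The difference was -0.07 (SE 0.15, 95% interval -0.47 to 0.34, adjusted p = 0.831), which is the narrowest interval among the 7 probes tested, and it was -0.0092 without Met-high replicate 2. The dimmer probe, A_55_P2022524, was at -3.09 and -2.78 in Met-low and at -3.25 and -5.05 in Met-high. Here Met-high replicate 2 stood apart from the other 3 arrays and was the only array on which this probe was not well above background, so that the probe entered the test through Met-low alone. Its difference was -1.22 (SE 0.62, 95% interval -2.84 to 0.40, adjusted p = 0.32). Leaving out Met-high replicate 2 gave -0.32 (adjusted p = 0.656), and leaving out Met-high replicate 1 gave -2.12, just past the threshold (adjusted p = 0.04999). The value of the dimmer Rbpj probe thus rested on 1 array.

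The difference between the ratios of the 2 Rbpj probes was itself tested, in a fit over all 3662 pairs of probes of a gene. It was 1.15 on the log2 scale (SE 0.64, 95% interval -0.67 to 2.98, unadjusted p = 0.151, limma adjusted p = 0.905). In that fit 0 of 3662 pairs passed the adjusted threshold (0%), and 286 had an unadjusted p under 0.05. The same fit called 0 of 200 simulated pairs with a known log2 difference of 2. Those pairs joined unrelated probes with independent noise, so that they do not give the power for 2 probes of a gene. No conclusion on whether the Rbpj probes differ is drawn from the absence of calls. In size, 97.9% of pairs had a smaller gap, and the median over pairs was 0.144. The Rbpj gap rested on 1 array as well, since it was 0.31 without Met-high replicate 2 and 2.00 without Met-high replicate 1. RefSeq also lists pseudogenes of Rbpj, and whether either probe binds their transcripts, or different Rbpj transcripts, was not tested.

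**Figure D2:**
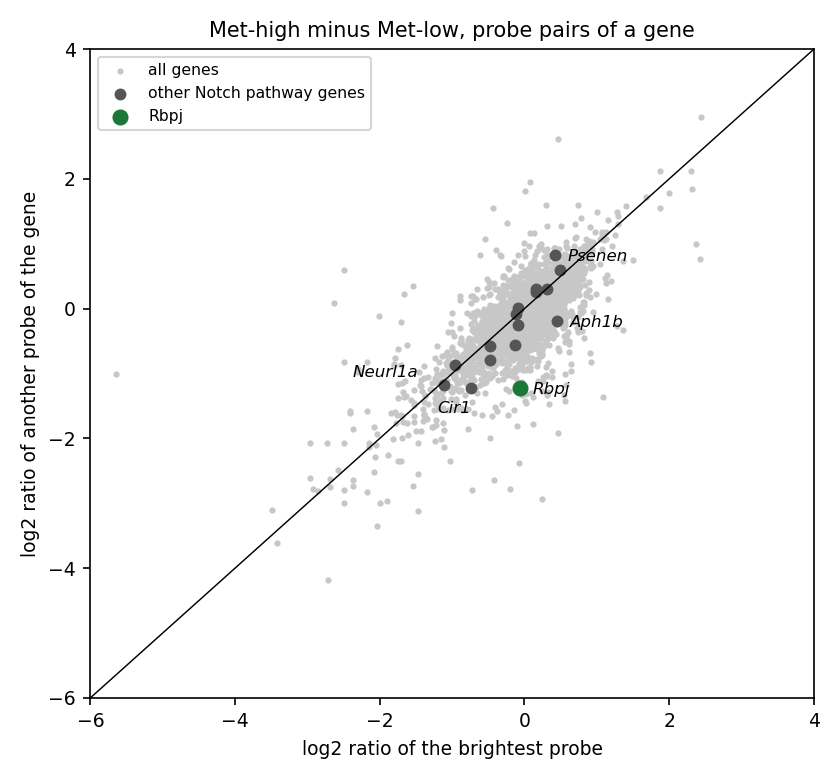
Log2 ratio, Met-high minus Met-low, of the brightest probe of a gene on the x axis against that of another probe of the same gene on the y axis, for 3662 pairs in grey, with 15 pairs of other Notch pathway genes in dark grey and the Rbpj pair in green. The line marks equal ratios. The Rbpj pair, at -0.07 and -1.22, lies below the line, while the Neurl1a pair, at -1.11 and -1.18, lies near it.

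Maml1, a coactivator that binds the complex of Rbpj and the cut receptor, was the brightest of the 10 genes in intensity, between 1453 and 1645 on the 4 arrays. Since probes differ in how well they bind, this is no ranking of transcript levels. Relative to the array percentile it was at 0.63 and 0.31 in Met-low and at 0.86 and 0.52 in Met-high, with overlap. The difference was 0.22 (SE 0.21, 95% interval -0.33 to 0.78, adjusted p = 0.574), and 0.39 without Met-high replicate 2. With each of the other arrays left out in turn it lay between 0.06 and 0.38, lowest without Met-high replicate 1 and 0.0639 without Met-low replicate 2. Maml1 was the only one of the 7 tested probes with a higher mean in Met-high.

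Of the targets, Hes1, a repressor of the basic helix-loop-helix family, was at -2.31 and -2.62 in Met-low and at -2.82 and -3.03 in Met-high. The lower Met-low array lay 0.20 above the higher Met-high array. The difference was -0.46 (SE 0.19, 95% interval -0.97 to 0.04), with an unadjusted p of 0.0655 and an adjusted p of 0.251, and it was -0.35 without Met-high replicate 2. Hey1, a related repressor, was at -6.08 and -5.51 in Met-low and at -5.35 and -4.62 in Met-high. It was well above background on Met-high replicate 2 alone. The values did not overlap, with Met-high above by 0.81, but 3 of the 4 are background signals and no test was made. Hes1 and Hey1 thus differed in the direction of their measured values, with Hey1 at the limit of detection.

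**Figure D3:**
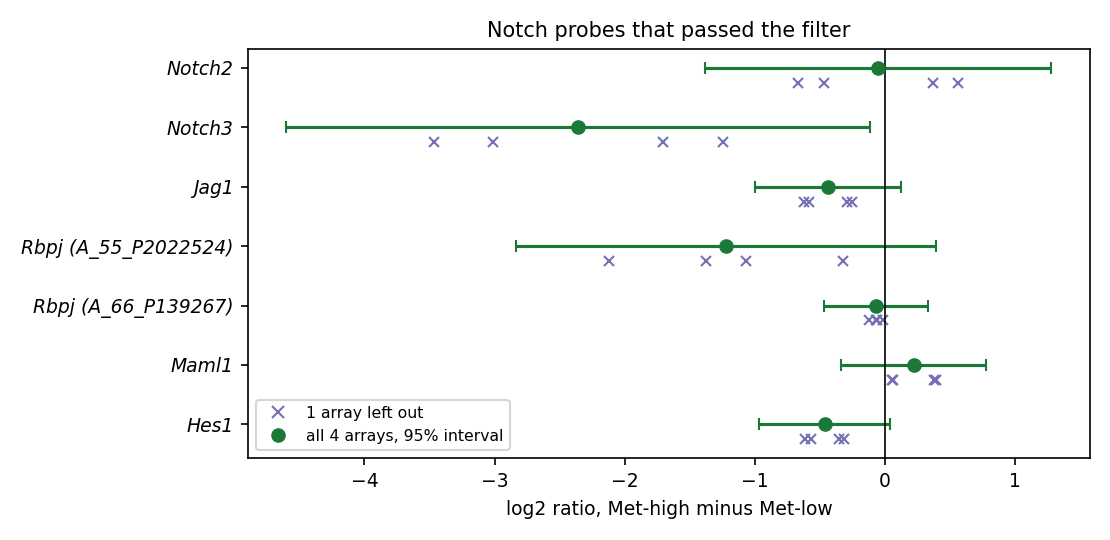
Log2 ratio, Met-high minus Met-low, of the 7 tested probes of Notch genes, with the 95% interval of the limma fit over all 4 arrays in green and the ratios with 1 array left out as crosses. The Notch3 interval alone leaves out 0, and the crosses of Notch3, Notch2 and the dimmer Rbpj probe A_55_P2022524 are the most spread.

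Counted together, 0 of the 7 tested probes passed a limma adjusted p of 0.05, against 2.63% of the 19796 probes tested on the array. At an unadjusted limma p under 0.05 there was 1 probe, Notch3, against 22.5% of all probes (11.3% higher in Met-low and 11.2% in Met-high). The t-test of the methods, unadjusted, called 0 of the 7, against 3318 of 19776 probes. After adjustment that t-test called 0 of all probes. Notch3 and the dimmer Rbpj probe differed by more than 2-fold with Met-low above, as were 5.82% of all probes, and none of the 7 was so in Met-high, as were 2.15%. The arrays did not overlap, with Met-low above, for 5 of the 7 probes (Notch3, Jag1, both Rbpj probes and Hes1), against 23% of all probes. The brighter Rbpj probe was among these by a gap of only 0.005. None of the 7 had both Met-high arrays above, against 32.4% of all, and the arrays overlapped for Notch2 and Maml1, against 44.6%. The mean was lower in Met-high for 6 of the 7, against 42.9% of all. The median difference was -0.43 over the 7 probes and 0.07 over all probes. Over the 5 probes detected on all 4 arrays, which leaves out Notch3 and the dimmer Rbpj probe, the median was -0.07, against 0.07 over all probes so detected. With the brightest probe of each gene it was -0.25, against 0.10 over all genes. The 5 probes without overlap and with Met-low above hold 4 genes. Of these probes 2 (Notch3 and the dimmer Rbpj probe) entered the test through Met-low alone, and the counts are a description of the genes chosen.

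The genes around the receptors were read from a list of 57 other Notch pathway genes in 8 roles, of which 54 had a probe. On 59 probes for 44 of these genes a test was possible, and 3 probes of 2 genes, Lfng and Neurl1a, passed the adjusted threshold, all higher in Met-low, against 2.07% of all probes in that direction. None of the 59 passed with Met-high above, where 0.556% of all probes did. At an unadjusted p under 0.05 there were 18 of 59 against 22.5% of all probes, 13 higher in Met-low (11.3% of all) and 5 in Met-high (11.2% of all). The median difference over the 59 probes was -0.08, against 0.07 over all probes. For the wider list it was 0.05 without Met-low replicate 1, against 0.04 over all probes. Without Met-high replicate 2 it was 0.04, against 0.09 over all probes.

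Lfng encodes Lunatic fringe, which adds a sugar to Notch receptors and so alters which ligands they answer. It was at -3.25 and -2.86 in Met-low and at -4.93 and -5.57 in Met-high, well above background on both Met-low arrays and on neither Met-high array. The populations were clearly apart (measured difference -2.20, SE 0.28, adjusted p = 0.0405). With Met-high signals raised to the detection limit where they were lower, as for Notch3, the Lfng mean in Met-low was 4.10-fold higher. This too is no minimum. Lfng entered the test through Met-low alone, as Notch3 did. Without Met-high replicate 2 the difference was -1.88 and the adjusted p was 0.0676, and the adjusted p was 0.0614 when Met-low replicate 1 was left out and 0.0785 when Met-low replicate 2 was. The sister genes Mfng and Rfng were tested on other probes and did not pass, at -0.23 for the Mfng probe and at 0.30 and 0.31 for the Rfng probes.

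Neurl1a encodes a ubiquitin ligase that helps cells take up Notch ligands. Its probe A_55_P2016618 was at -1.32 and -1.25 in Met-low and at -2.37 and -2.42 in Met-high, and its probe A_55_P2023692 was at -1.52 and -1.34 in Met-low and at -2.64 and -2.57 in Met-high. On both probes the Met-low arrays stood more than 2-fold above the Met-high arrays in the mean, with little spread inside a population. The differences were -1.11 (SE 0.15, adjusted p = 0.0444) and -1.18 (SE 0.16, adjusted p = 0.0448). Both calls were lost when any 1 of the 4 arrays was left out, with adjusted p between 0.119 and 0.155, while the differences stayed between -1.07 and -1.27. Its relative Neurl1b went the other way in value, at 5.34 and 4.86 in Met-low and at 5.93 and 5.72 in Met-high, without passing (difference 0.72, adjusted p = 0.172).

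**Figure D4:**
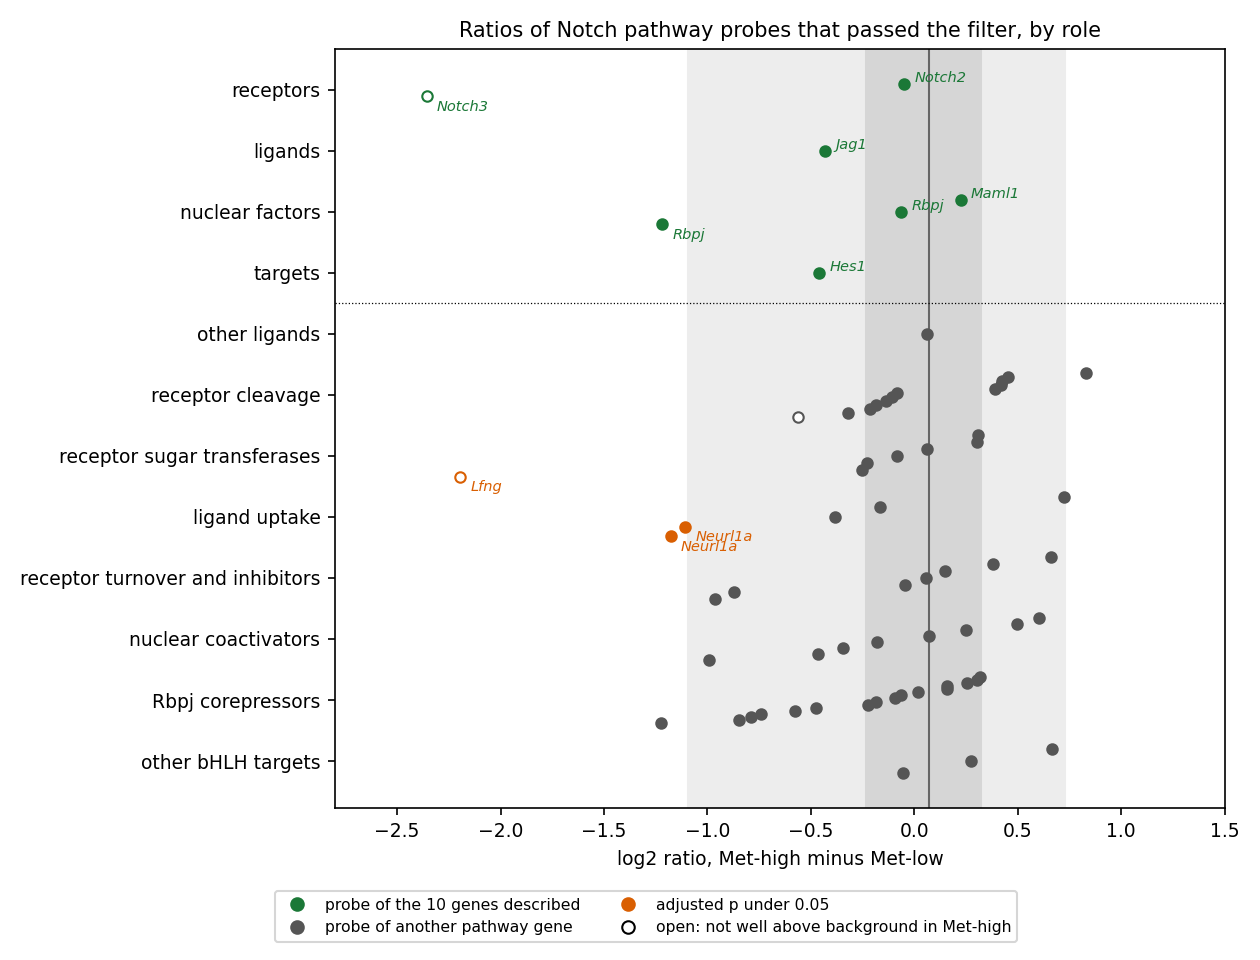
Log2 ratio, Met-high minus Met-low, of each probe that was tested, by role, for the 10 genes above the dotted line and for the wider Notch pathway list under it. Orange marks passed an adjusted p of 0.05, open marks had no Met-high array above background, and the grey bands hold 50% and 90% of all 19796 probes, around their median of 0.07. Lfng and the 2 Neurl1a probes are the orange marks, and these, Notch3, the dimmer Rbpj probe and 1 probe of the corepressor Cir1 at -1.23 lie outside the wider band on the Met-low side.

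The machinery that cuts the receptor was measured throughout, with 12 probes for 8 genes and 0 calls, beside 2.63% of all probes called. Adam10, the protease that makes the first cut after ligand binding, was at 2.72 and 2.31 in Met-low and at 2.40 and 1.99 in Met-high, with overlap (difference -0.32, adjusted p = 0.479). Psen2, a catalytic subunit of gamma-secretase, was at 4.87 and 4.62 in Met-low and at 5.18 and 5.09 in Met-high (difference 0.39, adjusted p = 0.268). Psenen, another subunit, differed by 0.83 and 0.42 on its 2 probes (adjusted p = 0.199 and 0.263), and on each of them Met-high was above without overlap. In this role 5 probes had both Met-high arrays above and 3 had both Met-low arrays above, the other 4 overlapping, beside 32.4%, 23% and 44.6% of all probes.

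Proteins that end or damp the signal were mixed. In the role of receptor turnover and inhibitors, 7 probes for 6 genes were tested with 0 calls, beside 2.63% of all probes. Of these 7, 3 were lower in Met-high, beside 42.9% of all probes, and 4 higher. Both Met-low arrays were above for 2 and both Met-high arrays for 2, beside 23% and 32.4% of all probes. The latter 2 were Numbl (difference 0.66, limma adjusted p = 0.307) and Dtx2 (difference 0.38, adjusted p = 0.247). Fbxw7, the part of a ubiquitin ligase that marks the cut receptor for breakdown, was at -0.19 and -0.05 in Met-low and at -1.14 and -1.03 in Met-high. Its difference was -0.96 on this probe (adjusted p = 0.0629) and -0.87 on a second (adjusted p = 0.0957), neither past the threshold. Nrarp, a target gene whose product damps Notch, was not well above background on any array. Fbxw7, and the genes Numbl, Dtx2, Psenen, Neurl1b, Maml2, Kat2a, Ncor1 and Kdm5a, were chosen after their values were seen.

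The partners of Rbpj in the nucleus also gave no call on 8 coactivator and 16 corepressor probes, beside 2.63% of all probes called. Among coactivators, Ep300, an acetyltransferase recruited by Mastermind proteins, differed by -0.46 (adjusted p = 0.202), Maml2 by -0.99 (adjusted p = 0.0714), and Kat2a by 0.50 and 0.60 on its 2 probes (adjusted p = 0.22 and 0.129). The tested Maml2 probe entered the test through Met-low alone, and the other Maml2 probe was not well above background on any array. Among 16 probes for 10 corepressor genes, 10 were lower in Met-high, beside 42.9% of all probes, and 6 higher. Both Met-low arrays were above for 5 of the 16 and both Met-high arrays for 1, beside 23% and 32.4% of all probes. Ncor1, a corepressor that binds histone deacetylases, differed by -0.47, -0.79 and -0.58 on its 3 probes, with adjusted p of 0.185, 0.212 and 0.148 and with both Met-low arrays above on each. Kdm5a, a histone demethylase that Rbpj can recruit, differed by -0.85 (adjusted p = 0.107).

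The remaining ligands and targets mostly lay under the limit at which a signal was called well above background. Dll1 and Dll4, the Delta-like ligands that activate Notch, reached that limit on none of the 4 arrays. Dll3, a Delta-like protein that does not activate it, lay on its brighter probe between -3.84 and -3.66 on the 4 arrays (difference 0.06, adjusted p = 0.854). Of the other Hes and Hey genes, Hes3, Hes5 and Heyl were not above background on any array, and Hey2 was so on 1 array of each population. Hes6, which is known to oppose Hes1, was at 1.60 and 1.60 in Met-low and at 1.45 and 1.64 in Met-high (difference -0.06, adjusted p = 0.864). Hes2 and Hes7 were tested as well, at 0.66 and 0.27, and did not pass. Hes2 entered the test through Met-high alone.

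Promoters were searched for the core of the Rbpj binding site, TGGGAA, on both strands, and for the longer form GTGGGAA, which contains it. The windows run from 250 bases before to 50 bases after the start of a transcript, and the RefSeq table of GRCm38.p6 held 9 windows for 8 of the 10 genes, with no window for Hes1 and Hey1. Of all 32851 windows, 25.6% held TGGGAA and 6.38% held GTGGGAA. Among the 9 windows, only the 2 of Rbpj held TGGGAA, and 0 held GTGGGAA; the 2 windows overlap and share a match. In the wider list 15 of 60 windows held TGGGAA (25%) and 7 held GTGGGAA (11.7%). Shown here, 5′ to 3′ on the strand of the gene and with the matches in capitals, are the promoters of Notch3 and Lfng, the most different receptor and receptor-modifying genes above, of Rbpj, and of Hes5, a target known to be switched on by Notch.
Notch3 (chr17:32166841-32167140, minus strand): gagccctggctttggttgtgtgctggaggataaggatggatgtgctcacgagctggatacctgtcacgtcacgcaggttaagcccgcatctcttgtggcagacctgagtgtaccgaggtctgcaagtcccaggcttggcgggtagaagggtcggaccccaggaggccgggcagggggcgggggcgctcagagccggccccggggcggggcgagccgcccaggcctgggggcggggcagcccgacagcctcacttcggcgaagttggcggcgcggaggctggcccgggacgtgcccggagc
Rbpj (chr5:53590096-53590395, plus strand): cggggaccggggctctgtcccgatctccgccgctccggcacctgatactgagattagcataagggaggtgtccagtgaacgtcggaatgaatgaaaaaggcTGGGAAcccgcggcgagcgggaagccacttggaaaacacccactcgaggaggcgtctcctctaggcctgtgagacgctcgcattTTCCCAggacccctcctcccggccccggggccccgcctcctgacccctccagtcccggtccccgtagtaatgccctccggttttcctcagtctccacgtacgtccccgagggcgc
Lfng (chr5:140607091-140607390, plus strand): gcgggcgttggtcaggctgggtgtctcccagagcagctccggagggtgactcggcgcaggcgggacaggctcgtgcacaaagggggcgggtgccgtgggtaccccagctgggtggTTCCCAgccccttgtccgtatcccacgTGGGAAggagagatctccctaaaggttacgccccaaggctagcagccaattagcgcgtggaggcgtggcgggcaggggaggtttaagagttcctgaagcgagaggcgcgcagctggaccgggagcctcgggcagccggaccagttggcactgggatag
Hes5 (chr4:154960673-154960972, plus strand): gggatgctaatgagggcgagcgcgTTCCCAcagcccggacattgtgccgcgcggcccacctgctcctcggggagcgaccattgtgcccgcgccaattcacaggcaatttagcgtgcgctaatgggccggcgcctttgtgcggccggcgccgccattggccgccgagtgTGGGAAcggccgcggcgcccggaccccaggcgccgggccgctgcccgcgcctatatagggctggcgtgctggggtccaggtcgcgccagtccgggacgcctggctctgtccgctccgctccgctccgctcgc
Positions are counted to the left end of a match, with negative numbers before the start. The Rbpj window held matches at -149 on its own strand and at -65 on the opposite strand. The Lfng window held matches at -135 on the opposite strand and at -108 on its own, the latter in the longer form. The Hes5 window held 2 matches of the longer form, at -226 and -82, although its transcript was not above background. The Notch3 window held none, which says only that these letters are absent from these 300 bases. A match is a string of letters and not a measured binding site.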

How the data were processed

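Total RNA from the sorted B16-F10 populations, 2 samples each, was measured on 1-colour arrays. The authors deposited, per array, the scanner's background-corrected Cy3 intensity of each spot (Feature Extraction 11.0.1.1 in the file headers, 10.7.3.1 in the submitters' processing notes, probes annotated by the maker on mm9), and a table of processed log2 values. Against the scanner values, that deposited log2 table matched the intensity over the 75th percentile, centred per probe, within 0.01 for 93.5% to 100% of 39297 probes. The column medians were 0.15, -0.04, 0.04 and -0.12.

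Here the intensity (floor 0.01, reached by 0 spots) was divided by the 75th percentile over non-control spots and put on a log2 scale. Flagged spots (207 to 232 per array) were left out, and spots of a probe were averaged. Probe accessions were named through RefSeq, with 12008 probes unmatched. Probes well above background on both Met-low or both Met-high arrays entered limma 3.58.1 in R 4.3.3 (lmFit, eBayes, two-sided, Benjamini-Hochberg over all 19796 probes, threshold 0.05). Intervals are 95%. A permutation of 2 arrays against 2 cannot give a p under 0.333, so none is given. For a probe above background on no array of a population, the fold given takes, per array, the probe's signal or the dimmest signal called well above background, whichever is higher. It comes from group means and has no interval. The number of arrays limits the precision.

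The 10 genes, the gene lists and the tests were chosen with earlier results of these data known. Named from the wider list are genes past the adjusted p, the defining gene of a role, and others marked as chosen later. Alternatives were normexp background (offset 50, on median spot intensities), quantile normalization, a percentile over detected probes, other filters, flagged spots kept, the brightest probe of each gene, the authors' values, each array left out, a replicate block, a variance trend, a 2-fold threshold and the methods' t-test. Fits with a lone array in a population assume for it the spread of the other population. The fits were tested on simulated data. Figures used matplotlib 3.10.9 under Python 3.11.15, and tables used pandas 2.3.3.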

Additional observations from a re-analysis of the deposited data

How the results depend on the processing

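No probe of the 10 Notch genes passed the adjusted threshold under any alternative, except Rbpj probe A_55_P2022524 without Met-high replicate 1 and Notch3 with the replicate number as a block, so that the count of such probes lay between 0 and 1 with 1 array left out. Over the alternatives the Notch3 difference ranged from -3.47 to -0.66 and its adjusted p from 0.0265 to 0.509. The differences of Jag1, Hes1, Maml1 and both Rbpj probes kept their sign, while that of Notch2 turned to 0.37 without Met-low replicate 1 and to 0.57 without Met-high replicate 2. Those of Dll3 (-0.0851 with the percentile over detected probes, -0.0014 to 0.1204 with 1 array left out) and Hes6 (-0.1478 to 0.0346 with 1 array left out) turned as well. The cause was not tested. The percentile over detected probes moved the median of all probes from 0.07 to -0.07.

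The count of 3 wider pathway probes went to 0 with normexp (16 at an unadjusted p under 0.05), to 1 with quantile normalization, to 5 with the percentile over detected probes, to 0 without a filter (13 unadjusted), and to between 0 and 1 with 1 array left out. It was 16 by the methods' t-test unadjusted and 0 after adjustment. Of all 19796 probes, 403 were called with normexp (4196 unadjusted), 389 with quantile normalization and 610 with the percentile over detected probes. Lfng had an adjusted p of 0.0878 with normexp and 0.151 without a filter, and its difference ranged from -2.51 to -0.98. Both Neurl1a probes lost their call with normexp (0.0526 and 0.0576), quantile normalization (0.0584 and 0.0659) and no filter (0.198 and 0.191). Fbxw7 passed on probe A_51_P506683 with the percentile over detected probes (0.0457), the brightest probe of each gene (0.0363) and a variance trend (0.0477). Maml2 passed with the first of these (0.049) and the second (0.0415). Its probe entered the test through Met-low alone, and its difference was -0.35 with normexp.

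Over all probes, the 520 calls became 0 without a filter (3939 unadjusted, with more dim probes tested), 3318 by the methods' t-test unadjusted and 0 after adjustment, and lay between 463 and 564 with 1 array left out, of which 176 to 239 were shared with the 520. Probes past 2-fold, 1578 of 19796, numbered 669 with normexp, 3927 without a filter, 959 with probes detected on all 4 arrays, 924 with the brightest probe of each gene, and 2146 to 2642 with 1 array left out. Probe pairs of a gene called as unequal were 0 throughout. That fit also made no call on simulated pairs of unrelated probes with known differences, so that no conclusion on stability is drawn. The median over the 59 wider pathway probes reached -0.23 with the percentile over detected probes, against -0.07 over all probes.

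The labels give both populations replicates 1 and 2 but do not say what the numbers share. Deviations of same-numbered arrays correlated at 0.527 over 19776 probes. With the replicate number as a block, 3265 probes were called, 1 probe of the 10 genes (Notch3, adjusted p = 0.0265) and 14 wider pathway probes, 10 higher in Met-low and 4 in Met-high. Among the wider pathway probes past the threshold with the block but not without it were both Fbxw7 probes (0.0261 and 0.0463), Maml2 (0.0291) and Kdm5a (0.0344). Others were 1 of the Ncor1 probes (0.0316), 1 of the Psenen probes (0.0329), Neurl1b (0.0429) and 1 of the Kat2a probes (0.04865). This is not the full list. Signals near the background limit the values of Notch1, Notch3, Notch4, Jag2 and Hey1.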
